A study of Mus musculus with 30 samples.

Results

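The epidermal growth factor (EGF) receptor family was followed in lung organoid co-cultures through 10 genes, 7 ligands (Areg, Ereg, Hbegf, Tgfa, Btc, Epgn and Nrg1) and 3 receptors (Egfr, Erbb2 and Erbb3), selected by symbol from the 55487 genes of each count file. Ligands of this family are made as membrane-anchored precursors that metalloproteases of the ADAM family release. Bound receptors pair with each other and signal through RAS, MAP kinases and PI3 kinase. Erbb2 has no known ligand of its own, Erbb3 has little kinase activity and binds neuregulins, and in the lung these receptors are known for their part in epithelial growth and repair.

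Wild-type (WT) mouse lung cells sorted as CD45-/CD31-/Epcam+ were grown in Matrigel with CCL206, a mouse lung fibroblast line whose division had been stopped with mitomycin C. The cultures were kept for 72 hours with Vehicle, EC (TNFα, IL-1β, IL-6 and IL-8 in the labels, with the mouse counterpart KC named in the methods), IPFc (TGF-β, TNFα, TSLP and CCL2 with the interleukins IL-33, IL-13, IL-8, IL-4 and IL-1β) or TGFb at 2 ng/ml. Afterwards each culture was divided with Epcam beads into an epithelial and a fibroblast fraction, and the RNA of both was sequenced. Of the 30 libraries, 15 are epithelial and 15 fibroblast. Each group has 4 mice except epithelial TGFb (mice 2, 3 and 4) and fibroblast Vehicle (mice 1, 3 and 4). There the remaining mouse has no library among the 30, although the other fraction of that culture has. The paper states that a control fibroblast sample was left out for low RNA quality, and it gives no reason for epithelial TGFb. All fibroblast libraries come from a single cell line, so the mouse number there stands for the culture and for the mouse that gave its epithelial cells. The medium of every group contained recombinant mouse EGF, itself a ligand of Egfr, so each comparison was made with the receptor already supplied with ligand.

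Values of single libraries are given in the order of the mouse numbers. The libraries held 5113828 to 20317181 counted reads. The fibroblast EC library of mouse 1 was the shallowest and stood apart from the other EC fibroblast libraries in several members, so results that rest on it are also given without mouse 1. The marker lists set the 2 fractions apart, yet neither was pure. The summed level of 12 epithelial markers was 18222 to 22765 CPM (counts per 1000000 counts of the library) in epithelial Vehicle libraries and 5281 to 8372 CPM in fibroblast Vehicle libraries. It was 7281 to 10804 CPM in fibroblast EC libraries and 134 to 521 CPM in fibroblast TGFb libraries. The summed level of 12 fibroblast markers was 712 to 1352 CPM in epithelial Vehicle and 11779 to 13554 CPM in epithelial TGFb libraries, while 2 of these markers, Postn and Thy1, stayed under 1 CPM on average in fibroblast Vehicle libraries too. Of 12 immune markers, 9 were under 1 CPM on average in epithelial and in fibroblast Vehicle libraries, Ptprc and Cd3e among them. Above that level were Cd74 (53.1 and 62.4 CPM), Lyz2 (59.7 and 79.3 CPM) and Cd68 (5.31 and 8.88 CPM), and Cd74 reached a mean of 230 CPM in epithelial TGFb libraries. Of 10 endothelial markers, 7 to 10 were under 1 CPM on average in each group. The others included Vwf, at up to 7.42 CPM in epithelial IPFc, and Pecam1, at 2.24 CPM in fibroblast TGFb libraries, and the summed level of the 10 stayed between 1.63 and 12.3 CPM.

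The share of the other fraction's RNA was estimated from marker ratios between the 2 libraries of a culture, or against the group mean for 2 libraries without a partner (epithelial Vehicle of mouse 2 and fibroblast TGFb of mouse 1). The share of epithelial RNA in fibroblast libraries was 15.2 to 26.8% in Vehicle, 35.8 to 55.7% in EC, 10.7 to 28.5% in IPFc and 0.808 to 3.22% in TGFb. The share of fibroblast RNA in epithelial libraries was 4.38 to 9.70% in Vehicle, 5.09 to 18.6% in EC, 4.24 to 16.2% in IPFc and 25.8 to 31.1% in TGFb. Each comparison with Vehicle is therefore given for the counts as deposited and also beyond the mixture, in which the level expected from the Vehicle level of a cell type and from the share of the other fraction enters the test as an offset. Each share is a median over markers, and the epithelial markers differed widely. For mouse 1, single markers gave 12.6 to 78.7% in the fibroblast Vehicle and 21.6 to 183% in the fibroblast EC library. Mean Sftpc was higher in fibroblast EC (2258 CPM) than in epithelial EC libraries (1937 CPM). The expected levels nevertheless take the other fraction's RNA to be like that of its sorted library. The share takes every marker read as RNA of the other cell type, so fibroblast markers made by epithelial cells under TGFb cannot be told apart from fibroblast RNA. In these bulk libraries, fewer cells of a type and less RNA per cell cannot be told apart either.

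**Figure D1:**
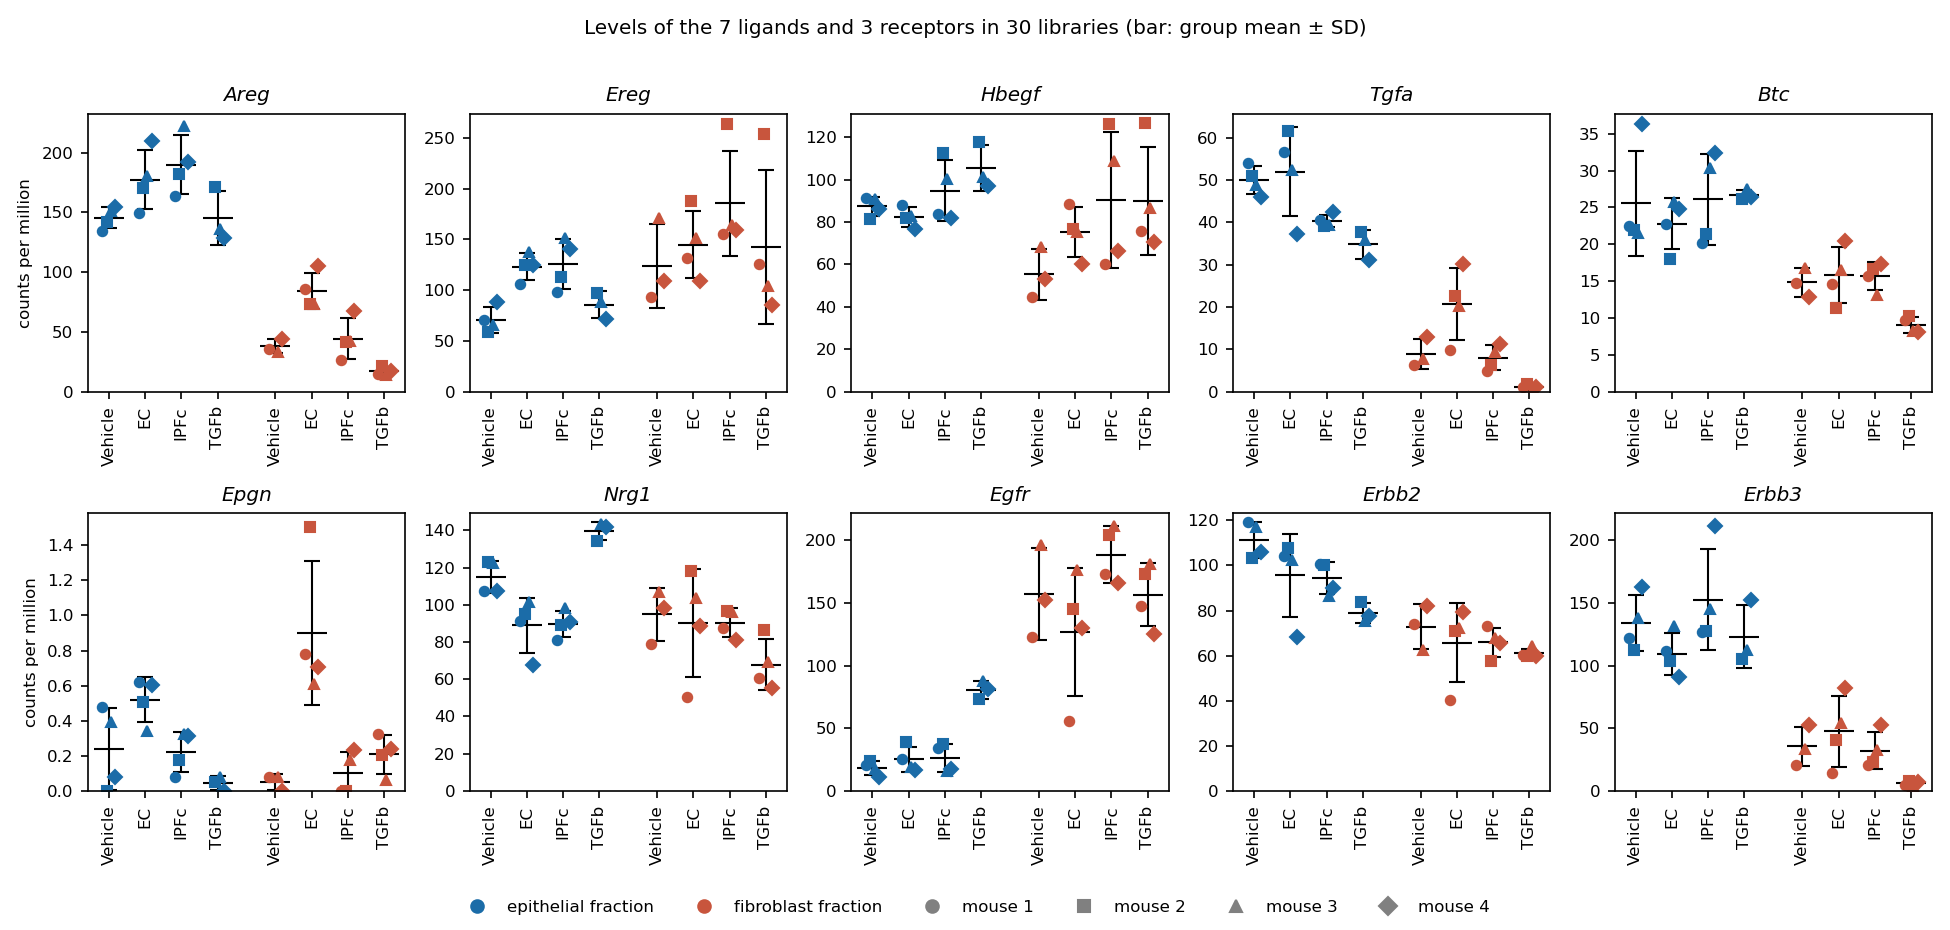
Level of each member in CPM (y axis, linear from 0) in the 30 libraries by fraction and treatment (x axis), with each mouse as a symbol and the group mean ± SD as bars. Areg, Tgfa and Erbb3 are higher in the epithelial (blue) and Egfr in the fibroblast fraction (red), and Egfr in the epithelial TGFb libraries, 73.0 to 87.9 CPM, lies above all other epithelial libraries.

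Amphiregulin (Areg, ENSMUSG00000029378) is a ligand that binds Egfr. It lies on chromosome 5 next to the other ligands Epgn, Ereg and Btc, at 91139599 to 91148432 in GRCm38.p6. Tgfa lies on chromosome 6 (86195038 to 86275744), Nrg1 on chromosome 8 (31807452 to 32891609), Erbb3 on chromosome 10 (128567523 to 128589635) and Erbb2 on chromosome 11 (98412484 to 98437716). The 250 bases before its start and before that of Egfr (chromosome 11, 16752203 to 16913907) are shown because this ligand and this receptor lie on opposite sides of the comparison between the fractions. Both sequences are from RefSeq, on the plus strand of GRCm38.p6, with motif matches on either strand in capitals.
Areg, chr5:91139349-91139598: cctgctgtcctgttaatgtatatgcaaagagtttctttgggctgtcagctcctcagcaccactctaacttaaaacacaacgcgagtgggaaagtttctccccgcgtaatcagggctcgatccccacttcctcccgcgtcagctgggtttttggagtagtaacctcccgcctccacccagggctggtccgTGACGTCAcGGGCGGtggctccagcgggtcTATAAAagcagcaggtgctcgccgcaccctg
Egfr, chr11:16751953-16752202: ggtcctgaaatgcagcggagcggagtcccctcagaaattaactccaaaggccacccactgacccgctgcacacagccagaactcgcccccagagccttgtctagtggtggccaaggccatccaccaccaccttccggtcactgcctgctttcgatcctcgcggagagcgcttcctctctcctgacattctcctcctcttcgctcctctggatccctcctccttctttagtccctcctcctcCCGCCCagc
Searched on both strands were the AP-1 site TGANTCA, the cAMP response element TGACGTCA, the GC box GGGCGG, the TATA box TATAAA and the SMAD pair CAGACA, and the matches found do not overlap. The capitals in Areg mark TGACGTCA beginning 61 bases before the start, GGGCGG 52 bases before it and TATAAA 31 bases before it. In Egfr the capitals mark 1 GC box, read on the minus strand, that begins 9 bases before the start. Among windows of the same length in 32851 promoters, 1.55% held TGACGTCA, 32.7% GGGCGG, 12.4% TATAAA, 6.75% TGANTCA and 17.1% CAGACA. A match describes the letters and not the binding of a factor.

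In the epithelial fraction, 2 of the 10 members changed with EC against a background of 4.67% of all genes tested. With the mouse left out of the model 1 member changed, and 308 of all genes were called in place of 830. Ereg (epiregulin, a ligand of Egfr and Erbb4) rose and Nrg1 (neuregulin 1, a ligand of Erbb3 and Erbb4) fell. Ereg was at 70.8, 58.8, 65.5 and 88.4 CPM with Vehicle and 106, 125, 138 and 125 CPM with EC. The groups did not overlap and every mouse was higher with EC (log2 difference 0.83, SE 0.11, adjusted p = 9.42e-05). Nrg1 was at 107, 123, 122 and 107 CPM with Vehicle and 91.3, 94.98, 102 and 67.8 CPM with EC, lower in 4 of 4 mice without overlap (log2 difference -0.36, SE 0.093, adjusted p = 0.0348). Areg, at 135, 142, 151 and 154 CPM with Vehicle and 149.6, 170.2, 181 and 209 CPM with EC, was higher in 4 of 4 mice, with overlapping groups, and missed the threshold (log2 difference 0.30, SE 0.089, adjusted p = 0.0694). So did Egfr (log2 difference 0.45, SE 0.13, adjusted p = 0.0517). Hbegf (heparin-binding EGF-like growth factor) differed by -0.061 on the log2 scale (SE 0.088, adjusted p = 0.846) and Tgfa (transforming growth factor α) by 0.063 on the log2 scale (SE 0.10, adjusted p = 0.87). Beyond the mixture, where 2.77% of genes were called, 1 member remained. Ereg was higher by 0.72, SE 0.11, adjusted p = 6.79e-04, and Nrg1 gave -0.33, SE 0.10, adjusted p = 0.109.

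IPFc changed 5 of the 10 members in the epithelial fraction, where 5.94% of all genes were called. Areg, Ereg and Egfr rose, and Nrg1 and Tgfa fell. With the mouse left out of the model 1 member changed, and DESeq2 called 3. These fits called 274 and 862 of all genes in place of 1065. Areg was at 164, 182, 222 and 193 CPM with IPFc, higher than Vehicle in each mouse and without overlap of the groups (log2 difference 0.37, SE 0.079, adjusted p = 0.00258). Ereg reached 98.5, 113, 151 and 141 CPM (log2 difference 0.82, SE 0.097, adjusted p = 9.97e-07), again without overlap. Nrg1 was at 81.3, 89.04, 98.04 and 90.6 CPM (log2 difference -0.36, SE 0.082, adjusted p = 0.00453) and Tgfa at 40.5, 39.1, 39.5 and 42.4 CPM (log2 difference -0.31, SE 0.095, adjusted p = 0.0466). Both were below Vehicle in 4 of 4 mice, without overlap. Egfr, the receptor to which Areg, Ereg, Hbegf, Tgfa, Btc and Epgn bind, was at 20.9, 24.2, 17.1 and 11.1 CPM with Vehicle and 34.2, 37.3, 16.02 and 17.5 CPM with IPFc, so that the groups overlapped and 3 of 4 mice were higher (log2 difference 0.46, SE 0.13, adjusted p = 0.0296). Beyond the mixture, with 3.35% of genes called, 3 members remained, namely Areg (0.43, SE 0.08, adjusted p = 5.49e-04), Ereg (0.62, SE 0.10, adjusted p = 1.27e-04) and Nrg1 (-0.35, SE 0.085, adjusted p = 0.0113). Egfr then lay at -0.18, SE 0.13, adjusted p = 0.735, the opposite direction, and fibroblast RNA would give 56.0 to 88.5% of its level in the IPFc libraries.

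Of the 3 treatments, TGFb gave the largest receptor difference from Vehicle in the epithelial fraction. Of the 10 members 4 changed, Egfr upward and Tgfa, Erbb2 and Erbb3 downward, where 41.7% of all genes were called. Egfr rose to 73.04, 87.9 and 81.1 CPM, above every other epithelial library (log2 difference 2.13, SE 0.13, adjusted p = 1.43e-32). Erbb2, the ligandless partner receptor, fell from 119, 103, 117 and 106 CPM with Vehicle to 83.9, 75.6 and 77.5 CPM (log2 difference -0.57, SE 0.10, adjusted p = 1.2e-06), without overlap. Tgfa fell from 54.1, 50.9, 48.8 and 46.1 CPM to 37.7, 35.8 and 31.1 CPM (log2 difference -0.59, SE 0.12, adjusted p = 1.32e-05), also without overlap. Erbb3 was at 122, 112, 138 and 163 CPM with Vehicle and 105, 112 and 152 CPM with TGFb, with overlapping groups (log2 difference -0.27, SE 0.10, adjusted p = 0.0197). By the marker share, fibroblast RNA would give 48.2 to 68.8% of the Egfr level in these libraries. Beyond the mixture, with 22.9% of genes called, Egfr was still higher but by less (0.56, SE 0.13, adjusted p = 3.28e-04), Erbb2 was lower (-0.39, SE 0.11, adjusted p = 0.00385) and Nrg1 was higher (0.31, SE 0.11, adjusted p = 0.0235). Tgfa (-0.17, SE 0.13, adjusted p = 0.392) and Erbb3 (0.14, SE 0.11, adjusted p = 0.414) no longer passed.

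**Figure D2:**
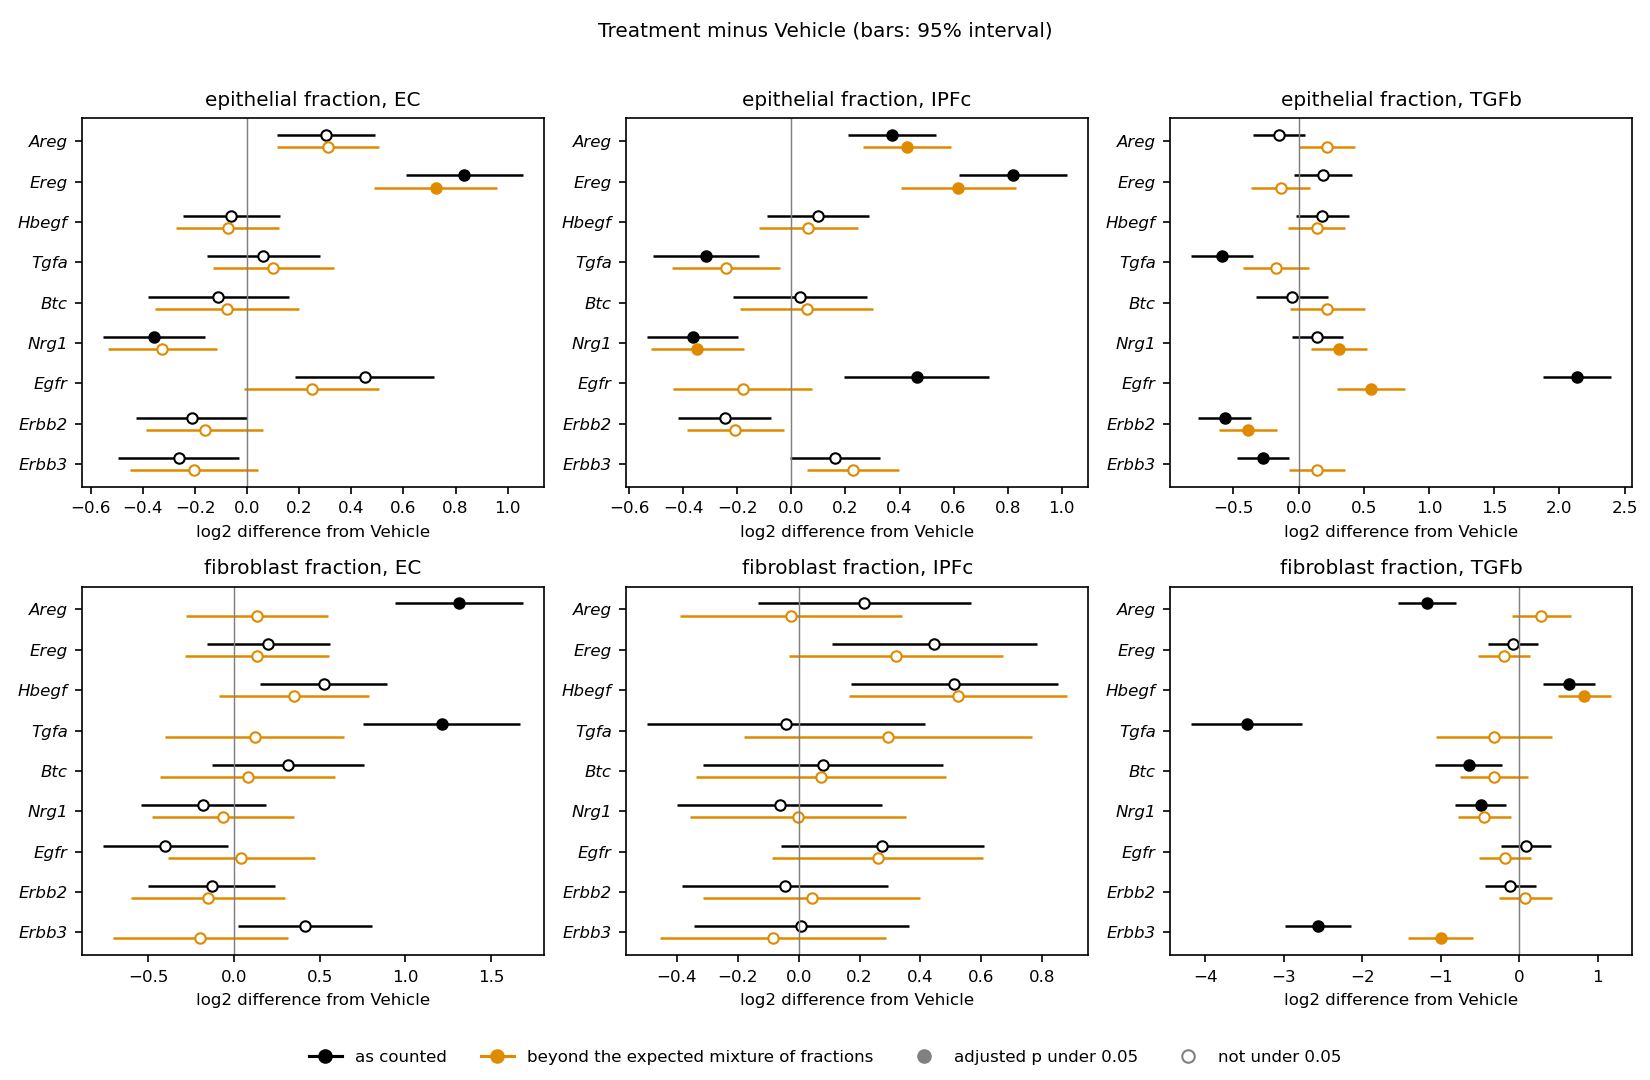
Log2 difference from Vehicle (x axis) of 9 members in each fraction and treatment, as counted (black) and beyond the expected mixture of fractions (orange), with 95% intervals and filled points for an adjusted p under 0.05. Epgn is left out for its few reads. In the fibroblast fraction the Areg and Tgfa differences under EC, 1.31 and 1.21, come to 0.13 and 0.12 beyond the mixture, while Hbegf under TGFb is called both ways.

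In the fibroblast fraction EC raised 3 of the 10 members as counted, Areg, Tgfa and Epgn, where 10.1% of all genes were called. With the mouse left out of the model it was 1 member and 49 of all genes, in place of 1831 genes. Areg was at 35.8, 33.2 and 44.5 CPM with Vehicle and 86.04, 73.6, 73.4 and 105 CPM with EC, without overlap (log2 difference 1.31, SE 0.19, adjusted p = 1.33e-09). Tgfa was at 6.22, 7.74 and 13.01 CPM with Vehicle and 9.78, 22.7, 20.3 and 30.2 CPM with EC, where mouse 1 of the EC group fell below the highest Vehicle library (log2 difference 1.21, SE 0.23, adjusted p = 1.34e-05). The EC library of mouse 2 has no Vehicle partner and does not enter these estimates. Epgn (epigen, another Egfr ligand) had 48 reads over the 4 EC libraries and 2 over the 3 Vehicle libraries, a ratio of 18.4 after scaling to the library totals with an exact 95% counting interval of 4.81 to 156, and its levels stayed between 0.608 and 1.51 CPM with EC. This pooled ratio does include the EC library of mouse 2, with 21 of the 48 reads, and its interval does not cover the spread between cultures. Hbegf, at 44.5, 68.3 and 53.2 CPM with Vehicle and 88.6, 76.9, 75.4 and 60.2 CPM with EC, was higher in 3 of 3 pairs, with overlapping groups, and missed the threshold (log2 difference 0.52, SE 0.19, adjusted p = 0.0545).

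The EC libraries of the fibroblast fraction also held the most epithelial RNA. Epithelial RNA alone would give 68.3 to 111% of their Areg level and 68.5 to 227% of their Tgfa level, values over 100% marking libraries with less of a member than their epithelial share predicts. Beyond the mixture 0.381% of genes and 0 of the 10 members were called by edgeR, with Areg at 0.13, SE 0.20, adjusted p = 1.00 and Tgfa at 0.12, SE 0.26, adjusted p = 1.00. The 95% interval of Areg ran from -0.28 to 0.55 and that of Tgfa from -0.40 to 0.64. Without mouse 1 the counts as deposited gave 1.27 (SE 0.18, adjusted p = 4.66e-10) for Areg, 1.37 (SE 0.22, adjusted p = 5.62e-08) for Tgfa and, newly past the threshold, 0.74 (SE 0.18, adjusted p = 0.00151) for Erbb3, an epithelial-rich receptor. In the EC library of mouse 1 Egfr was at 55.7 CPM, Nrg1 at 50.6 CPM, Erbb2 at 40.3 CPM and Erbb3 at 14.3 CPM, in each case the lowest of the 4 EC libraries.

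**Figure D3:**
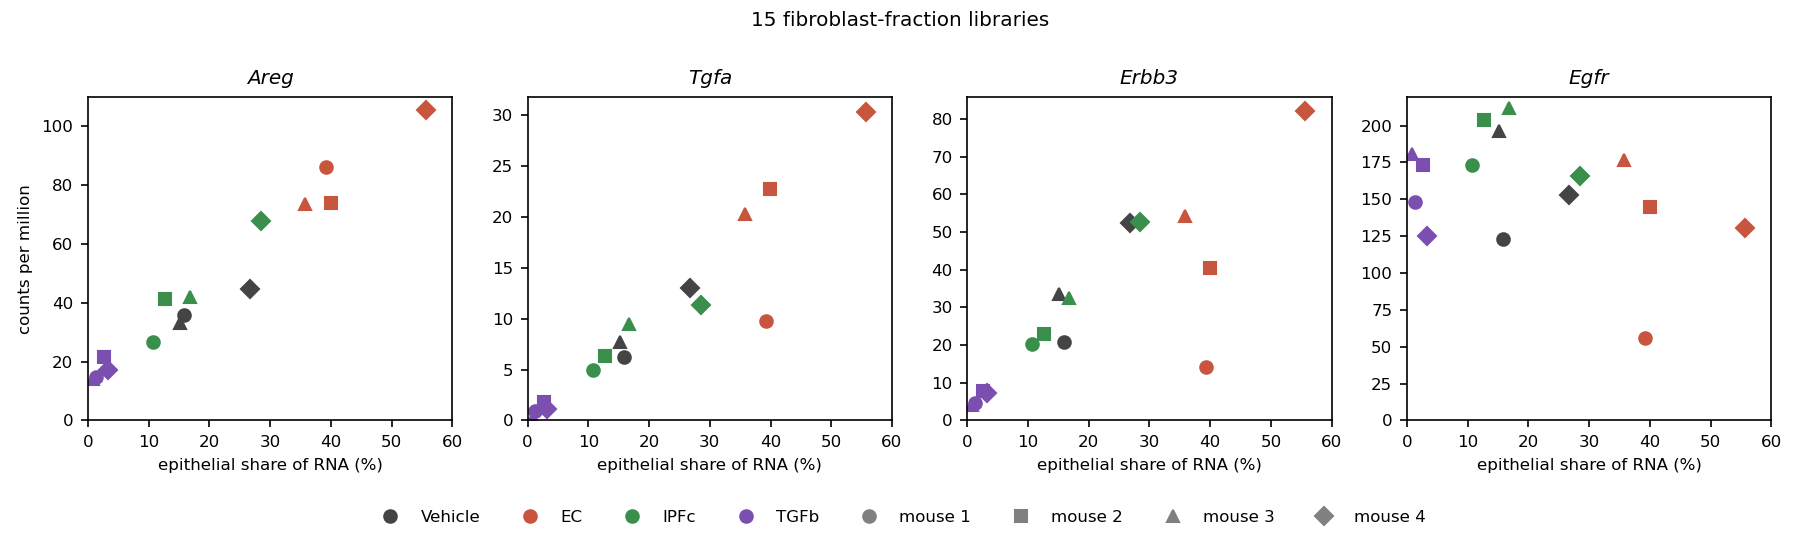
Level in CPM (y axis, linear from 0) of Areg, Tgfa, Erbb3 and Egfr in the 15 fibroblast-fraction libraries against their estimated share of epithelial RNA in percent (x axis), coloured by treatment with a symbol for each mouse. The TGFb libraries, with shares of 0.808 to 3.22%, have the lowest Areg, Tgfa and Erbb3, and the EC libraries, with shares of 35.8 to 55.7%, the highest Areg.

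IPFc changed 0 of the 10 members in the fibroblast fraction by edgeR, where 1.27% of all genes were called. At an unadjusted p under 0.05 there were 2, Ereg and Hbegf, and DESeq2 called 0. Hbegf was at 60.4, 126, 109 and 66.6 CPM (log2 difference 0.51, SE 0.17, adjusted p = 0.162), higher than Vehicle in 3 of 3 pairs, with a 95% interval of 0.17 to 0.85. Ereg was at 92.8, 171 and 109 CPM with Vehicle and 155, 263, 164 and 159.7 CPM with IPFc (log2 difference 0.45, SE 0.17, adjusted p = 0.326), and both genes overlapped with Vehicle. The interval for Areg was -0.13 to 0.57 and that for Egfr -0.058 to 0.61, and both include 0. Beyond the mixture 0.669% of all genes and 0 of the 10 members were called.

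With TGFb, 6 of the 10 members changed in the fibroblast fraction as counted, 5 of them downward, where 19.9% of all genes were called. Hbegf rose to 76.02, 127, 86.5 and 70.7 CPM, above every Vehicle library (log2 difference 0.63, SE 0.17, adjusted p = 0.00133). Tgfa fell to 0.975, 1.85, 0.245 and 1.08 CPM (log2 difference -3.47, SE 0.36, adjusted p = 2.66e-20) and Erbb3 from 20.8, 33.5 and 52.3 CPM to 4.55, 7.69, 4.17 and 7.38 CPM (log2 difference -2.57, SE 0.21, adjusted p = 1.11e-31). Neither overlapped with Vehicle. Areg fell to 14.8, 21.6, 13.97 and 17.04 CPM (log2 difference -1.17, SE 0.19, adjusted p = 7.22e-09), Btc (betacellulin, a ligand of Egfr and Erbb4) from 14.8, 16.8 and 12.9 CPM to 9.67, 10.3, 8.27 and 8.04 CPM (log2 difference -0.64, SE 0.22, adjusted p = 0.0175) and Nrg1 from 78.9, 107 and 98.5 CPM to 60.5, 86.6, 69.1 and 55.3 CPM (log2 difference -0.49, SE 0.17, adjusted p = 0.0203). Areg and Btc did not overlap with Vehicle and Nrg1 did. The 5 members that fell did so in libraries whose epithelial share was a few percent or less. Beyond the mixture, with 17.4% of genes called, Hbegf (0.83, SE 0.17, adjusted p = 2.5e-05) and Erbb3 (-0.9999, SE 0.21, adjusted p = 3.57e-05) were called, and Areg was at 0.28, SE 0.19, adjusted p = 0.355, the opposite sign. Tgfa was at -0.32, SE 0.38, adjusted p = 0.657, Btc at -0.32, SE 0.22, adjusted p = 0.369 and Nrg1 at -0.44, SE 0.17, adjusted p = 0.0556. Epithelial RNA would give 62.6 to 92.9% of the Erbb3 level in fibroblast Vehicle libraries. What was left of Erbb3 was 1.49, 12.5 and 8.65 CPM with Vehicle and 2.97, 4.93, 3.26 and 2.48 CPM with TGFb, so mouse 1 did not fall. With the other fraction subtracted 1 of the 6 calls remained. Without mouse 4, Hbegf under TGFb gave 0.69 (SE 0.26, adjusted p = 0.0655) as counted, and 3 of the 6 calls remained. Egfr did not pass with any treatment in this fraction and stood at 123, 196 and 153 CPM with Vehicle, 55.7, 145, 177 and 130.4 CPM with EC, 174, 204, 212 and 166 CPM with IPFc and 148, 173, 181 and 125 CPM with TGFb.

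The treatments were also set against each other as counted. EC and IPFc differed in 0 of the 10 members in the epithelial fraction by edgeR (background 3.54% of all genes, 2 members at an unadjusted p under 0.05 and 0 by DESeq2). In the fibroblast fraction (background 4.54%) EC was higher than IPFc in Areg (log2 difference 1.01, SE 0.20, adjusted p = 0.0219) and Tgfa (log2 difference 1.37, SE 0.18, adjusted p = 0.00466). With the other fraction subtracted both differences turned to the opposite sign (Areg -0.44, Tgfa -0.61), in a fit that called 0 genes in all, and neither passed with the mouse left out of the model. The epithelial share was 35.8 to 55.7% in these EC and 10.7 to 28.5% in these IPFc libraries. Without mouse 1, 8 members and 4046 of all genes differed, against 820 genes with all mice. Without mouse 2, 3 or 4 it was 1 member each, with 193, 316 and 339 genes. EC differed from TGFb in 5 members of the epithelial fraction (background 32.9%), with Areg, Ereg and Tgfa higher and Nrg1 and Egfr lower with EC. IPFc differed from TGFb in 7 members there (background 37%), of which Egfr (log2 difference -1.69, SE 0.19, adjusted p = 2.93e-07) and Nrg1 (log2 difference -0.44, SE 0.09, adjusted p = 5.11e-04) were lower with IPFc and Areg, Ereg, Tgfa, Erbb2 and Erbb3 higher. The fibroblast share of these epithelial libraries was 5.09 to 18.6% with EC, 4.24 to 16.2% with IPFc and 25.8 to 31.1% with TGFb. After subtraction 3 of the 5 and 4 of the 7 calls remained, and Tgfa reversed for IPFc against TGFb. In the fibroblast fraction 5 members were higher with EC than with TGFb (background 23.1%) and 7 were higher with IPFc than with TGFb (background 29%). The epithelial share was lowest in the TGFb libraries of both comparisons. The 7 included Ereg (log2 difference 0.38, SE 0.095, adjusted p = 0.0046) and Egfr (log2 difference 0.19, SE 0.062, adjusted p = 0.0301).

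The fractions differed in 8 of the 10 members with Vehicle, where 46.1% of all genes were called. Areg (log2 difference 2.005, SE 0.21, adjusted p = 3.85e-18), Tgfa (log2 difference 2.56, SE 0.24, adjusted p = 2.92e-22) and Erbb3 (log2 difference 2.11, SE 0.22, adjusted p = 2.22e-19) were higher in the epithelial fraction, as were, by less, Btc, Hbegf and Erbb2. Egfr (log2 difference -3.23, SE 0.23, adjusted p = 1.38e-35) and Ereg (log2 difference -0.65, SE 0.21, adjusted p = 0.00611) were higher in the fibroblast fraction. Nrg1 gave 0.29 on the log2 scale (SE 0.20, adjusted p = 0.239), with a 95% interval of -0.11 to 0.70. With EC 5 members differed (background 30.1%), with IPFc 7 (background 53.4%) and with TGFb 7 (background 46.1%). Areg, Tgfa, Btc, Erbb3 and Egfr passed with all 4 treatments in the same direction. With TGFb the difference in Egfr was -1.05 on the log2 scale (SE 0.15, adjusted p = 6.55e-07) and Nrg1 was higher in the epithelial fraction (log2 difference 0.93, SE 0.15, adjusted p = 7.3e-06). With the other fraction's share subtracted the Vehicle difference in Egfr was -4.52 (adjusted p = 7.29e-04) and that in Areg 4.11 (adjusted p = 0.00132) on the log2 scale. The share of fibroblast RNA in epithelial libraries was 4.38 to 9.70% with Vehicle and 25.8 to 31.1% with TGFb. That of epithelial RNA in fibroblast libraries was 15.2 to 26.8% and 0.808 to 3.22%. After subtraction 6 of the 8 Vehicle, 6 of the 7 IPFc and 6 of the 7 TGFb calls remained. Of all genes, 6072, 8573 and 6103 were then called. For EC the subtraction called 0 members and 0 of all genes, so it says nothing about the members.

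**Figure D4:**
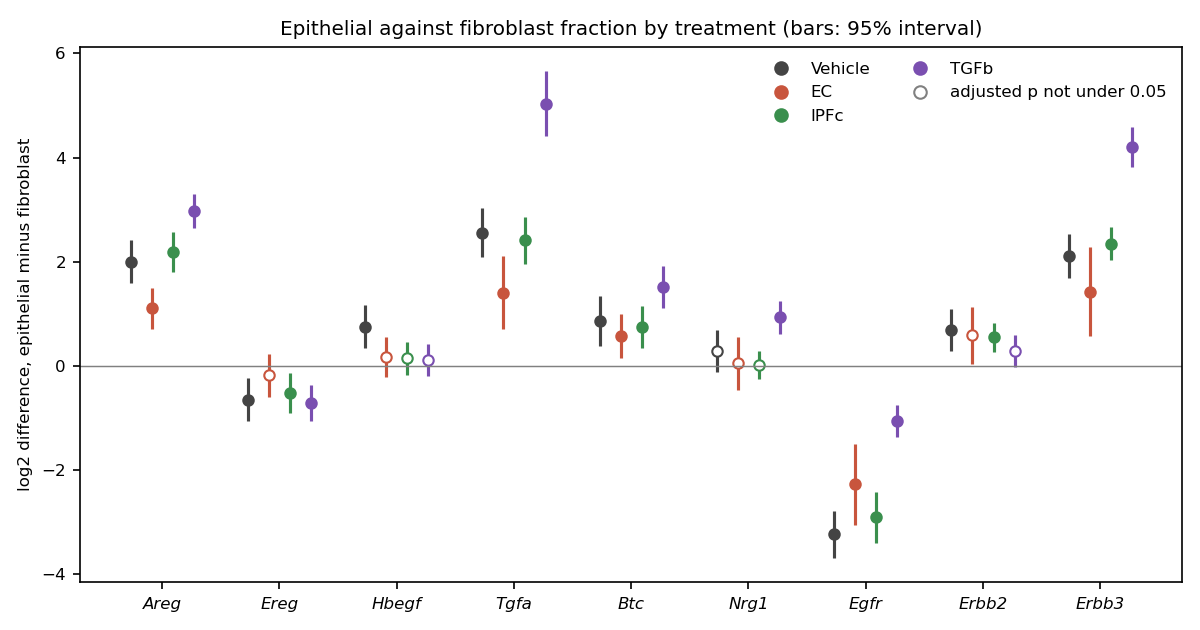
Log2 difference of the epithelial from the fibroblast fraction (y axis) for 9 members (x axis) with each treatment, with 95% intervals and open points where the adjusted p is not under 0.05. Egfr lies below 0 throughout and is nearest to it with TGFb, at -1.05, while Tgfa and Erbb3 are farthest above 0 with TGFb, at 5.03 and 4.202. All values are as counted, and in both fractions the share of the other fraction's RNA differed between Vehicle and TGFb libraries.

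Whether the fractions responded differently was tested as an interaction, given as the epithelial minus the fibroblast log2 response. To EC 3 of the 10 members differed (background 5.06%), Areg (log2 difference -0.98, SE 0.16, adjusted p = 0.00212), Tgfa (log2 difference -1.13, SE 0.21, adjusted p = 0.00464) and Egfr (log2 difference 0.88, SE 0.23, adjusted p = 0.0366). Without mouse 1 Egfr gave 0.64 (SE 0.23, adjusted p = 0.0861) and was lost, while Ereg at 0.95 (SE 0.22, adjusted p = 0.00146) and Erbb3 at -1.03 (SE 0.23, adjusted p = 5.93e-04) passed. To IPFc 0 differed by edgeR (background 0.414%, 2 members at an unadjusted p under 0.05 and 0 by DESeq2). To TGFb 5 differed (background 26.2%), all with the higher value on the epithelial side, namely Areg (log2 difference 1.09, SE 0.20, adjusted p = 5.52e-05), Tgfa (log2 difference 2.95, SE 0.33, adjusted p = 1.03e-08), Nrg1 (log2 difference 0.70, SE 0.19, adjusted p = 0.0044), Egfr (log2 difference 2.12, SE 0.23, adjusted p = 8.09e-09) and Erbb3 (log2 difference 2.37, SE 0.21, adjusted p = 1.53e-10). The median over all genes in that test was 0.26. The epithelial share moved between fibroblast groups in each of these tests, and with the other fraction subtracted only Tgfa remained for EC, and Nrg1 and Egfr for TGFb. Those fits called 144 and 2860 of all genes in place of 920 and 4862. Subtraction sets negative remainders to 0. For Tgfa in the fibroblast fraction the remainders were -2.37, 0.337 and 0.664 CPM with Vehicle and -12.5, -1.97, 1.51 and 9.54 CPM with EC. The Tgfa result after subtraction thus rests on values near or under 0.

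Per kilobase of exon, which allows genes to be compared within a library, the most abundant member in epithelial Vehicle libraries was Areg, with a mean of 119 ± 7.30 (SD, n = 4) CPM per kilobase. It was followed by Erbb3 with 21.2 ± 3.51 (SD, n = 4) and Erbb2 with 20.5 ± 1.45 (SD, n = 4) CPM per kilobase, and Egfr was at 1.59 ± 0.486 (SD, n = 4). In fibroblast Vehicle libraries Areg was also highest at 30.95 ± 4.83 (SD, n = 3) CPM per kilobase, although epithelial RNA would give 59.7 to 93.0% of it, ahead of Ereg at 27.9 ± 9.24 (SD, n = 3), Egfr at 13.6 ± 3.19 (SD, n = 3) and Erbb2 at 13.4 ± 1.83 (SD, n = 3). In fibroblast TGFb libraries, where that share was lowest, Ereg led with 31.97 ± 17.04 (SD, n = 4), followed by Hbegf with 17.6 ± 4.98 (SD, n = 4), Areg with 13.8 ± 2.82 (SD, n = 4) and Egfr with 13.6 ± 2.18 (SD, n = 4) CPM per kilobase. Epgn stayed at or under 1.51 CPM in every library, and most of its libraries had under 10 reads.

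Across the 8 groups the mean Areg level ran from epithelial IPFc over EC, Vehicle and TGFb to fibroblast EC, IPFc, Vehicle and TGFb. Among the 4 epithelial groups each overlapped with its neighbour, and the step from epithelial TGFb to fibroblast EC was without overlap. Egfr ran from fibroblast IPFc over Vehicle, TGFb and EC to epithelial TGFb, IPFc, EC and Vehicle, and the step from epithelial TGFb to IPFc was without overlap. Ereg was highest in fibroblast IPFc and lowest in epithelial Vehicle, and its fibroblast TGFb libraries ranged from 85.7 to 253 CPM. Hbegf was highest in epithelial TGFb and lowest in fibroblast Vehicle, and every neighbour in its order overlapped.

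Other genes of the pathway were counted by list. Of the 5 other family members (Egf, Nrg2, Nrg3, Nrg4 and Erbb4), 3 could be tested in the epithelial fraction. With TGFb 1 of these 3 was called, where 41.7% of all genes were. Nrg2 fell from a mean of 0.985 CPM (SD 0.912) to 0.0177 CPM (SD 0.0307, adjusted p = 1.13e-04). Both means were under 1 CPM, so this rests on few reads, and the Vehicle SD was close to its mean. Of 12 genes for ligand shedding (ADAM proteases and their inhibitors), 5 rose and 1 fell in the epithelial fraction with TGFb, where 41.7% of all genes were called (median log2 difference 0.04, all genes 0.05). In the fibroblast fraction 3 rose and 4 fell, where 19.9% were called (0.27, all genes 0.00). Beyond the mixture 3 of the 12 rose and 3 fell in the epithelial fraction, beside 22.9% of all genes. In the fibroblast fraction 3 rose and 4 fell beyond the mixture, beside 17.4%. Adam12, a protease of this group, rose from 7.03 to 98.7 CPM in the epithelial fraction and from 13.2 to 47.0 CPM in the fibroblast fraction, and beyond the mixture by 2.41 (adjusted p = 3.97e-59) and 1.67 (adjusted p = 1.73e-16). Adam19 rose in the fibroblast fraction with TGFb and with IPFc (adjusted p = 6.16e-13 and 0.0308), and beyond the mixture it was called with TGFb (adjusted p = 8.7e-08) and not with IPFc (adjusted p = 0.106). Timp3, an inhibitor of these proteases, fell with EC in both fractions, from 124 to 54.8 CPM in the epithelial fraction and from 653 to 288 CPM in the fibroblast fraction, and beyond the mixture it was called in the epithelial fraction only (adjusted p = 6.71e-06 against 0.217). The difference between those fractions beyond the mixture was not tested.

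Of 22 inhibitors of receptor signalling, 11 rose and 5 fell in the epithelial fraction with TGFb, and 11 rose and 3 fell in the fibroblast fraction, beside 41.7% and 19.9% of all genes called. Beyond the mixture 2 rose and 3 fell in the epithelial fraction, a share near the 22.9% of all genes, and 8 rose and 2 fell in the fibroblast fraction, beside 17.4%. Dusp5, a phosphatase of ERK, rose with TGFb in fibroblasts from 27.4 to 95.3 CPM (adjusted p = 6.37e-27), and Rasa1, which switches off RAS, from 205 to 431 CPM (adjusted p = 4.81e-10). With EC 0 of the 22 changed in the epithelial fraction by edgeR (1 at an unadjusted p under 0.05). Of 16 target genes of ERK, 6 rose and 6 fell in the epithelial fraction with TGFb (41.7% of all genes called), and 0 rose and 1 fell with EC, a share near the background of 4.67%. Beyond the mixture 2 of the 16 rose and 8 fell with TGFb, beside 22.9% of all genes. Egr1, an immediate early gene, rose with TGFb in the epithelial fraction from 36.5 to 147 CPM, and was at -0.14 beyond the mixture (adjusted p = 0.466). Epha4 rose from 26.6 to 83.0 CPM and was called beyond the mixture as well (adjusted p = 3.12e-40), and Plaur, the urokinase receptor, fell from 224 to 125 CPM (adjusted p = 1.25e-09 beyond the mixture). Of 21 signalling proteins 0 changed with EC or IPFc in the epithelial fraction by edgeR (2 and 4 at an unadjusted p under 0.05), and 6 rose and 5 fell with TGFb, again beside 41.7% of all genes, Hras falling from 113 to 69.9 CPM. Beyond the mixture 3 of the 21 rose and 3 fell with TGFb, beside 22.9% of all genes.

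The genes whose log2 levels followed each member most closely over the 15 libraries of the fraction with the higher mean, after removing each mouse's mean, were listed as a description. The points share libraries and treatments. Areg was closest to Nup107 (r = 0.96), Ufsp2 (r = 0.93) and Acat2 (r = 0.91), and Egfr in the fibroblast fraction to Abcb1b, Ganab and Zc3hav1 (r = 0.97 each). Ereg in the fibroblast fraction was closest to Sde2 (r = 0.88), Ptgs2 (r = 0.87) and Dnajc3 (r = 0.86). Nrg1 followed Txnrd1, Ifnlr1 and Ptgfrn (r = 0.98, 0.97 and 0.96), Erbb2 followed Nbeal2, Plxna2 and Map3k9 (r = 0.98, 0.97 and 0.96) and Erbb3 followed Acaca, Lyst and Pi4ka (r = 0.95, 0.93 and 0.93). Tgfa was closest to Gtf3c5, Cnfn and Itga3 (r = 0.96, 0.93 and 0.93), Btc to Api5, Haus6 and Pik3ca (r = 0.93, 0.92 and 0.92) and Hbegf to Ankra2, Invs and Lyrm2 (r = 0.90, 0.89 and 0.89).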

How the data were processed

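RNA of 30 libraries was sequenced from the epithelial and fibroblast fractions of organoid co-cultures of 4 mice. The authors trimmed the reads with Trimmomatic (0.30 in the submitters' processing notes, which also name DESeq2 1.34.0) and deposited raw counts per Ensembl gene, 1 file per library. The methods name GRCm38 p6 and the labels GRCm39. The files hold no coordinates, so positions were taken from a RefSeq table of GRCm38.p6 by symbol, with 10 of 10 members matched. The library kit keeps strand, and the strand setting of the counting is not given in the sources used here.

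Counts were tested with edgeR (4.0.16, quasi-likelihood, TMM, R 4.3.3) with the mouse as a block, on genes whose mean count reached 1. Multiple testing was handled by Benjamini-Hochberg adjustment over all genes tested (threshold 0.05). All adjusted p in the report are from edgeR unless DESeq2 (1.42.0) is named. Mice come from the labels. Same-mouse deviations from group means correlated by 0.306 on average in the epithelial and 0.329 in the fibroblast fraction. With the block, a library without a partner of its mouse adds nothing to a difference. In comparisons of the fibroblast fraction with Vehicle the spread was fully shared between genes, which makes adjusted p small. It was largely shared in epithelial TGFb against Vehicle and between the fractions with Vehicle. There the prior held 147 and 454 degrees of freedom beside 2 residual ones. The fibroblast cultures share 1 cell line, so their p-values measure the spread between cultures. CPM are counts per 1000000 counts of the library. For levels per kilobase they were divided by the union of annotated exons of GENCODE on GRCm39, matched by Ensembl identifier. Intervals from read counts cover counting error only.

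The 10 members and the gene lists were chosen with earlier results of these data known. All members are named, with up to 4 genes per list by smallest adjusted p and the 3 genes most correlated with each member. The fits were run on simulated counts with a fixed spread and no difference between mice. For the mixture offset the simulated partner library was purely epithelial. These settings differ from the libraries here, so the simulation does not show how the fits behave on them. Alternatives were DESeq2, other size factors, other filters, no block, all treatments in 1 model, each mouse left out, and subtraction of the other fraction. Subtraction keeps no negative counts, so a library with less of a gene than expected enters as having none. The offset for the expected mixture was added after the data were seen, and the error of the estimated share is not carried into it.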

Additional observations from a re-analysis of the deposited data

Results flagged for a closer look

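Among 60 sets of 4 libraries tested for a value far from the others, 4 had one, and chance gives about 1 in 20. Ereg in the fibroblast IPFc library of mouse 2 was at 263 CPM, with the next at 164 CPM. Btc in the epithelial Vehicle library of mouse 4 was at 36.3 CPM, with the next at 22.5 CPM. Erbb2 was at 68.3 CPM in the epithelial EC library of mouse 4, below the next at 103 CPM. Erbb2 in the fibroblast TGFb library of mouse 3 was at 64.2 CPM, with the next at 60.2 CPM.

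The response of the 2 fractions differed by an interaction test in edgeR for several members, given here as the epithelial minus the fibroblast log2 response. For EC it was -0.98 for Areg (adjusted p = 0.00212), -1.13 for Tgfa (adjusted p = 0.00464) and 0.88 for Egfr (adjusted p = 0.0366). Without mouse 1 Egfr was at 0.64 and did not pass (adjusted p = 0.0861). For TGFb it was 1.09 for Areg (adjusted p = 5.52e-05), 2.95 for Tgfa (adjusted p = 1.03e-08), 0.70 for Nrg1 (adjusted p = 0.0044), 2.12 for Egfr (adjusted p = 8.09e-09) and 2.37 for Erbb3 (adjusted p = 1.53e-10). The share of epithelial RNA in fibroblast libraries was 35.8 to 55.7% with EC and 0.808 to 3.22% with TGFb, and the cause of the differences was not tested. With the other fraction subtracted, the Areg interaction turned to the opposite sign for EC (0.82) and for TGFb (-0.34).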

How the results depend on the processing

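Of 81 calls of single members, 81 held with RLE size factors, 75 of 80 with DESeq2, 80 with no filter on low counts, 76 of 79 with a mean count of at least 10, 37 of 46 with all treatments in 1 model and 27 of 27 with a term for the title suffix. Without the replicate block 62 held, and 65 to 72 held with 1 mouse left out. With the other fraction subtracted 39 held and 12 reversed, and with the mixture offset 8 of 20 held, 9 no longer passed and 3 reversed.

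Counts of members called moved as follows. For epithelial EC against Vehicle (2 members) there were 4 with no filter and 1 without the replicate block, with subtraction or with the mixture offset. Of all genes, 1232, 308, 250 and 492 were then called in place of 830. For epithelial IPFc against Vehicle (5) there were 3 with DESeq2, the stricter filter, subtraction or the offset, 2 in the joint model and 1 without the replicate block. In that order 862, 902, 343, 601, 739 and 274 of all genes were called in place of 1065. For fibroblast EC against Vehicle (3) there was 1 without the replicate block and 0 with subtraction or the offset, where 49, 0 and 69 of all genes were called in place of 1831. For fibroblast TGFb against Vehicle (6) there was 1 with subtraction and 2 with the offset, where 1474 and 3138 were called in place of 3582. Between epithelial EC and IPFc (0) there was 1 with no filter or in the joint model, with 951 and 751 of all genes in place of 627. Subtraction gave 3 for epithelial EC against TGFb (5) and 4 for epithelial IPFc against TGFb (7). It called 2841 and 5124 of all genes there in place of 5984 and 6752. For fibroblast EC against IPFc (2) there were 0 without the replicate block or with subtraction and 4 in the joint model, with 247, 0 and 1885 of all genes called in place of 820. Fibroblast EC against TGFb (5) had 0 with subtraction (52 of all genes in place of 4173), and fibroblast IPFc against TGFb (7) had 4 without the replicate block, with subtraction or in the joint model. For the latter 3221, 4249 and 3141 of all genes were called in place of 5197. The fractions with EC (5) differed in 0 with subtraction, which called 0 of all genes in place of 5436. Fits that call 0 genes in all say nothing about the members. The interaction for EC (3) had 5 with no filter, 0 without the replicate block and 1 with subtraction, where 1431, 4 and 144 of all genes were called in place of 920. That for TGFb (5) had 2 with subtraction, where 2860 were called in place of 4862.

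Leaving out 1 mouse gave 1 to 4 members for epithelial EC against Vehicle (4 without mouse 4, when 1522 of all genes were called in place of 830). It gave 2 to 6 for epithelial IPFc against Vehicle (2 without mouse 1, 722 in place of 1065) and 3 to 6 for fibroblast TGFb against Vehicle (3 without mouse 4, 2052 in place of 3582). For epithelial EC against IPFc there were 0 to 1 (1 without mouse 4, 946 in place of 627). For epithelial EC against TGFb there were 3 to 6 (3 without mouse 2 or 3, 4429 and 3654 in place of 5984). Fibroblast EC against IPFc had 1 to 8 (8 without mouse 1, 4046 in place of 820). Fibroblast EC against TGFb had 3 to 7 (3 without mouse 3 or 4, 3350 and 2535 in place of 4173). The fractions with EC had 2 to 6 (2 without mouse 2, 2507 in place of 5436).

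Log2 differences that reversed with subtraction were Egfr for epithelial IPFc (-0.66, and -0.18 with the offset), Erbb3 for epithelial TGFb (0.15, and 0.14 with the offset), Areg for fibroblast EC (-0.55) and Areg for fibroblast TGFb (0.53, and 0.28 with the offset), all against Vehicle. Between treatments they were Tgfa for epithelial IPFc against TGFb (-0.019), Areg (-0.44) and Tgfa (-0.61) for fibroblast EC against IPFc, Areg (-0.85) and Erbb3 (-0.32) for fibroblast EC against TGFb and Areg for fibroblast IPFc against TGFb (-0.24). In the interactions they were Areg for EC (0.82) and for TGFb (-0.34). The subtraction fits for fibroblast EC against Vehicle and against IPFc called 0 genes in all, so their reversals say nothing about the members. The cause was not tested. Epgn, with few reads in each library, is limited by depth.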
